A study of Caenorhabditis elegans with 4 samples.

Results

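The genes described here are 7 genes of Caenorhabditis elegans that store or move iron. They were taken by name from 19852 deposited loci and comprise the ferritin genes ftn-1 and ftn-2, the divalent metal transporter genes smf-1, smf-2 and smf-3, and the ferroportin homologues fpn-1.1 and fpn-1.2. Each name matched 1 locus. RNA of whole wild-type N2 adults was sequenced in 4 libraries, 1 per group, as paired-end reads of 100 bp. The control RNAi normoxia group was fed the empty RNAi vector at normal oxygen, and the control RNAi hypoxia group was fed the same vector and kept for 36 h at 0.5% oxygen in nitrogen from day 1 of adulthood. The elt-2 RNAi normoxia and elt-2 RNAi hypoxia groups were fed bacteria making double-stranded RNA of elt-2, which encodes a GATA factor of the intestine, under the same oxygen regimes. All 4 groups were on modified RNAi plates, with a listed temperature of 20 °C, and none carried a mutation or transgene. The control RNAi groups are called vector below. Each group being 1 library, neither the levels nor the differences between 2 libraries could be checked against replicates.

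Ferritin subunits assemble into a hollow shell that holds iron in a harmless mineral form. Divalent metal transporters of the NRAMP family carry ferrous iron and manganese into cells, and ferroportin carries iron out. In the worm intestine, ftn-1 and smf-3 are known targets of iron-dependent control in which the hypoxia-inducible factor HIF-1 lowers ferritin transcription and raises smf-3 when iron is scarce, and GATA sites recognised by intestinal factors such as ELT-2 are needed for their intestinal expression. The study combined oxygen deprivation with RNAi against elt-2. The labels give neither an iron treatment nor HIF-1 activity, and the part of that control in the values below was not tested.

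The targeted gene does not show a lower level in the libraries named for it. elt-2 was at 4.81 RPKM (reads per kilobase of transcript and per depth of the library) with vector in normoxia, 15.2 with vector in hypoxia, 14.3 in elt-2 RNAi normoxia and 23.8 in elt-2 RNAi hypoxia. RNAi food carries elt-2 double-stranded RNA, and its part in these values was not tested. The RNAi groups are therefore called the libraries labelled elt-2 RNAi. The libraries listed between 10462 and 11048 loci at 1 RPKM or more, and the worth of a single read, judged from loci under 0.3 RPKM, lay between 0.877 and 1.09 times that of control RNAi normoxia. Absolute depth is unknown. The RNA is of whole animals, so fewer cells of a type and less RNA per cell cannot be told apart.

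The 7 genes spanned a wide range of levels. ftn-2 was the highest of them in every library. smf-2 was the lowest in 3 libraries and ftn-1 in the labelled elt-2 RNAi normoxia library. Of the 7 genes, 5 had a mean of at least 1 RPKM over the 4 libraries and were compared among 10655 genes. smf-2, with a mean of 0.118 RPKM, and fpn-1.2, with a mean of 0.967 RPKM, fell under that limit and are given by their values. The plot of RPKM by gene and library shows every value.

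**Figure D1:**
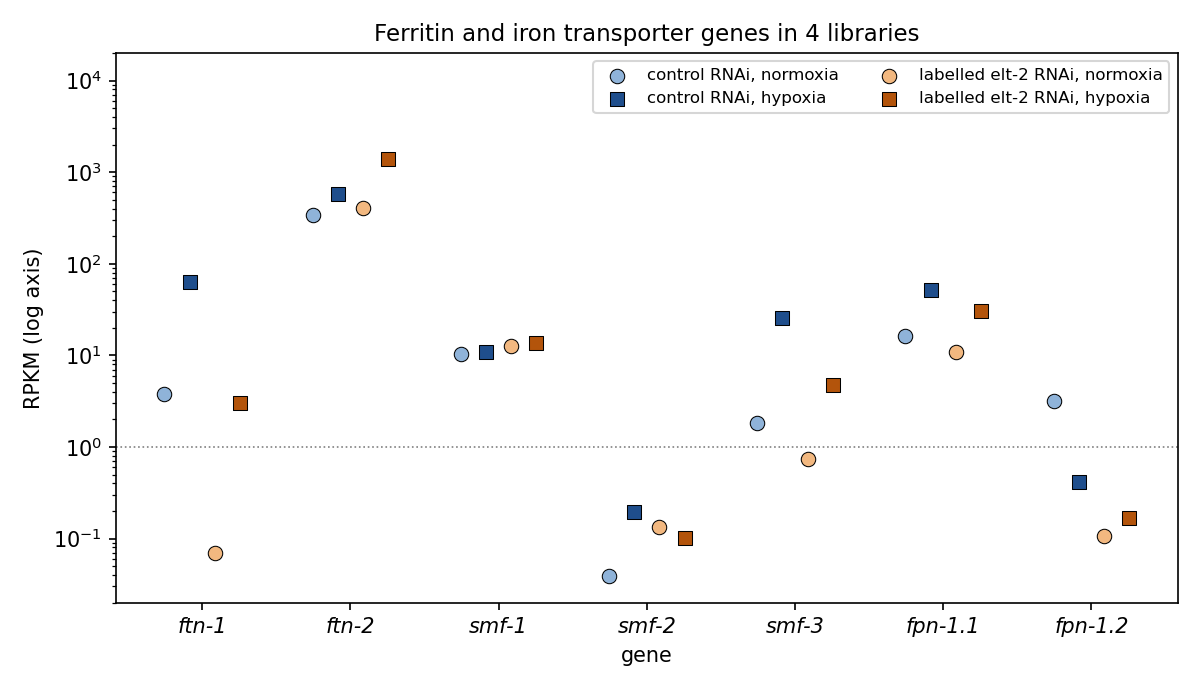
RPKM (log axis) of the 7 genes, 1 point per library; circles are normoxia, squares hypoxia, blue control RNAi and orange labelled elt-2 RNAi, with a dotted line at 1 RPKM. ftn-2 lies between 344 and 1396 RPKM, while ftn-1 runs from 0.0692 to 63.7 RPKM.

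ftn-1 encodes the ferritin known for its strong response to iron in the intestine. Its locus lies on chromosome V from 7546467 to 7547580 (ce10, minus strand), and the WBcel235 annotation gives 1 protein-coding transcript of 3 exons with 170 codons. ftn-1 was at 3.80 RPKM with vector in normoxia, 63.7 with vector in hypoxia, 0.0692 with labelled elt-2 RNAi in normoxia and 3.06 with it in hypoxia. The control hypoxia library stood far above the others, the labelled elt-2 RNAi normoxia library far below them, and the remaining pair lay close together. The hypoxia library labelled elt-2 RNAi was thus near vector in normoxia, with a log2 ratio of -0.24. All log2 ratios here are of (RPKM + 1), which understates changes of low values, unless no pseudocount is stated. The authors' log2 fold changes are an exception. They are printed as deposited, and for the genes described here they match log2 ratios of RPKM without a pseudocount.

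In hypoxia ftn-1 was 16.8-fold higher with vector, taken without a pseudocount, and 15 of the 10655 compared genes had a higher log2 ratio than its 3.75. With labelled elt-2 RNAi it was 44.2-fold higher without a pseudocount, from a normoxia value of 0.0692 RPKM, and its log2 ratio of (RPKM + 1) was 1.92, with 221 compared genes above it. Against control RNAi, the library labelled elt-2 RNAi had a log2 ratio of -2.17 in normoxia and -3.996 in hypoxia, with 89 and 35 compared genes below it. The control RNAi hypoxia library enters both the hypoxia effect with vector and the RNAi effect in hypoxia, so those values are not separate observations. In the authors' deposited table, ftn-1 was called in the hypoxia comparison of control RNAi (log2 fold change of 4.07, adjusted p = 0.0496), where 0.467% of tested loci were called. The authors' deposited table did not call it in hypoxia between foods (-4.38, adjusted p = 0.0532), in normoxia between foods (-5.78, adjusted p = 0.999) or for hypoxia with labelled elt-2 RNAi (5.46, adjusted p = 0.999).

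ftn-2 encodes the other ferritin, which is the more abundant and the more broadly expressed. It lies on chromosome I from 3680181 to 3680947 (minus strand), again with 1 protein-coding transcript of 3 exons and 170 codons, the same coding length as ftn-1. ftn-2 was at 344 RPKM with vector in normoxia, 579 with vector in hypoxia, 405 with labelled elt-2 RNAi in normoxia and 1396 with it in hypoxia. Both hypoxia libraries lay above both normoxia libraries, and the highest value was that labelled elt-2 RNAi in hypoxia, where 128 of the 19852 loci had more RPKM.

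The hypoxia ratio of ftn-2 was 0.75 (log2) with vector and 1.78 with labelled elt-2 RNAi. Its RNAi ratio was 0.24 in normoxia and 1.27 in hypoxia, the latter with 121 compared genes above it. ftn-2 thus stood on the other side of 0 from ftn-1 at both oxygen levels. The authors' deposited table called ftn-2 for hypoxia with labelled elt-2 RNAi (log2 fold change of 1.78, adjusted p = 0.0101) and for labelled elt-2 RNAi in hypoxia against control RNAi in normoxia (2.02, adjusted p = 0.0101), comparisons in which 0.712% and 1.23% of tested loci were called. It was not called between foods in hypoxia (1.27, adjusted p = 0.129).

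Both ferritin genes together held 347 RPKM with vector in normoxia, 643 with vector in hypoxia, 406 with labelled elt-2 RNAi in normoxia and 1399 with it in hypoxia. ftn-1 made up 1.09% of that sum with vector in normoxia and 9.91% with vector in hypoxia. With labelled elt-2 RNAi its share was 0.0171% in normoxia and 0.218% in hypoxia. RPKM is per length, so these are shares of transcripts as far as the deposited lengths hold. ftn-2 made up the rest, and the library in which ftn-1 was highest was not the one in which the sum was highest.

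smf-3 encodes the NRAMP transporter of the intestine's apical membrane known for iron uptake. It lies on chromosome IV from 2618931 to 2625436 (plus strand), with 560 codons in its longest coding transcript. smf-3 was at 1.82 RPKM with vector in normoxia, 25.4 with vector in hypoxia, 0.732 with labelled elt-2 RNAi in normoxia and 4.77 with it in hypoxia. The order of the 4 libraries was that of ftn-1 except that labelled elt-2 RNAi hypoxia stood above control normoxia. In hypoxia smf-3 was 13.98-fold higher with vector and 6.52-fold higher with labelled elt-2 RNAi without a pseudocount, at log2 ratios of 3.23 and 1.74. Its RNAi ratio was -0.70 in normoxia and -2.19 in hypoxia, with 170 compared genes below the latter.

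For smf-3 the authors' deposited table made no call for hypoxia with vector (log2 fold change of 3.80, adjusted p = 0.0596), for hypoxia with labelled elt-2 RNAi (2.71, adjusted p = 0.296) or between foods in hypoxia (-2.41, adjusted p = 0.168). That table called smf-3 only between labelled elt-2 RNAi in normoxia and control RNAi in hypoxia (-5.12, adjusted p = 0.0377), where 1.56% of tested loci were called.

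smf-1 and smf-2, whose products are known to carry manganese and iron, lie next to each other on chromosome X on the minus strand, 1205 bp apart. smf-1 (6719631 to 6723027, 562 codons) was at 10.4 RPKM with vector in normoxia, 11.001 with vector in hypoxia, 12.6 with labelled elt-2 RNAi in normoxia and 13.7 with it in hypoxia. Its highest value was 1.31 times its lowest, the narrowest range of the 7 genes. The log2 ratios of smf-1 were 0.07 and 0.11 for hypoxia, and 0.25 and 0.29 for labelled elt-2 RNAi. smf-2 (6716319 to 6718425, 546 codons) was at 0.0393, 0.197, 0.133 and 0.102 RPKM in the same order, all at or under 0.197 RPKM, and the authors' test was not run on it in any of the 6 deposited tables.

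The share of smf-3 among the NRAMP transcripts differed between libraries. Their summed level was 12.3 RPKM with vector in normoxia, 36.6 with vector in hypoxia, 13.4 with labelled elt-2 RNAi in normoxia and 18.5 with it in hypoxia. smf-3 held 14.8% of that sum with vector in normoxia and 69.4% with vector in hypoxia, and 5.45% and 25.8% with labelled elt-2 RNAi in normoxia and hypoxia. smf-3 was above smf-1 with vector in hypoxia, by 2.31-fold, and below it in the other 3 libraries.

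fpn-1.1 encodes a homologue of ferroportin, the iron exporter of vertebrates. It lies on chromosome I from 2113651 to 2118553 (minus strand, 509 codons), and all 4903 bp of it lie within npp-13, a nuclear pore gene on the other strand. fpn-1.1 was at 16.4 RPKM with vector in normoxia, 51.9 with vector in hypoxia, 10.9 with labelled elt-2 RNAi in normoxia and 30.6 with it in hypoxia. Both hypoxia libraries stood above both normoxia libraries, and at each oxygen level the control library was the higher. The log2 hypoxia ratio of fpn-1.1 was 1.61 with vector and 1.40 with labelled elt-2 RNAi. Its RNAi ratio was -0.54 in normoxia and -0.74 in hypoxia. None of the labels or headers says how strand was treated in counting, so reads of npp-13 and fpn-1.1 may not be separable. npp-13 itself was at 76.5, 49.1, 76.4 and 56.4 RPKM in the same order of libraries, lower in hypoxia where fpn-1.1 was higher. The authors' deposited tables called fpn-1.1 in no comparison.

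fpn-1.2, the second ferroportin homologue, lies on chromosome V from 1462063 to 1464777 (minus strand, 507 codons). fpn-1.2 was at 3.18 RPKM with vector in normoxia, 0.414 with vector in hypoxia, 0.107 with labelled elt-2 RNAi in normoxia and 0.169 with it in hypoxia. Control RNAi normoxia stood above the other 3 libraries. The authors' deposited table gave a log2 fold change of -2.94 for hypoxia with vector (adjusted p = 0.428) and -4.89 between foods in normoxia (adjusted p = 0.865), and called neither. fpn-1.3, the remaining ferroportin homologue in the files, was looked up after the values of the others were seen and lay between 0.0504 and 0.177 RPKM.

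**Figure D2:**
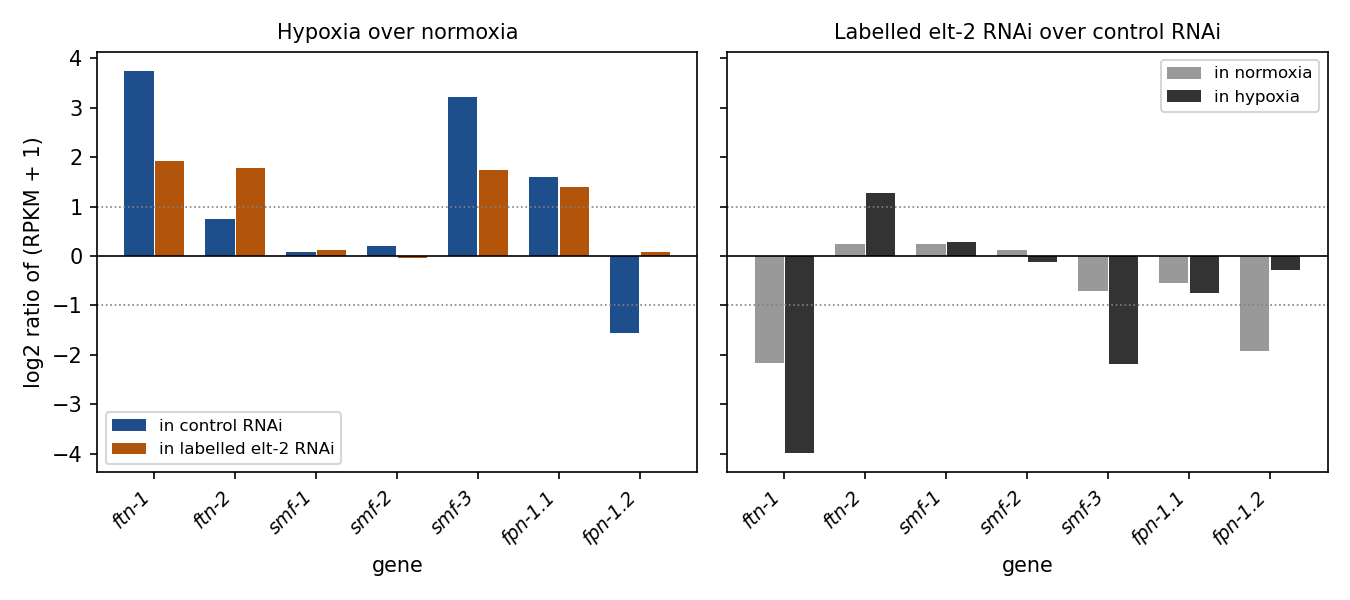
Log2 ratios of (RPKM + 1) for the 7 genes (bars from 0): hypoxia over normoxia on the left, with vector (blue) and labelled elt-2 RNAi (orange), and labelled elt-2 RNAi over control on the right, in normoxia (grey) and hypoxia (black), with dotted lines at 2-fold. ftn-1 and smf-3 have the longest hypoxia bars with vector (3.75 and 3.23), and ftn-2 alone passes 2-fold upwards in the right panel (1.27 in hypoxia).

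Hypoxia with vector took ftn-1, smf-3 and fpn-1.1 past 2-fold upwards, 3 of the 5 compared genes, against 9.48% of all compared genes. With labelled elt-2 RNAi 4 of 5 were at least 2-fold higher, against 9.87% of all compared genes, ftn-2 being added. None of the 5 was at least 2-fold lower in either food, where 3.55% and 4.25% of compared genes were. The 2 genes under the mean limit are outside these counts. Of these, fpn-1.2 was lower in hypoxia with vector, at -1.56 (log2), and at 0.08 with labelled elt-2 RNAi. For smf-2 the ratios were 0.20 and -0.04. The median log2 ratio of the 5 genes was 1.61 with vector and 1.74 with labelled elt-2 RNAi, and that of all compared genes 0.01 and -0.01. The 5 genes were chosen with earlier results of these data known, so these counts describe them and carry no test.

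The average effect of hypoxia over both foods was fitted with limma on all 10655 genes and 4 libraries. In hypoxia the transcript rose for fpn-1.1 by 1.51 ± 0.11 (log2, SE, 4 libraries; limma adjusted p = 0.0144), for smf-3 by 2.48 ± 0.42 (adjusted p = 0.0306), for ftn-1 by 2.84 ± 0.50 (adjusted p = 0.0322) and for ftn-2 by 1.27 ± 0.28 (adjusted p = 0.0432). For smf-1 the average was 0.09 ± 0.12 (adjusted p = 0.567). Each of these genes was higher in hypoxia in both foods. The fit called 4 of the 5 as higher, against 17.2% of all compared genes called higher, 15.7% lower and 32.9% in either direction. Its only residual degree of freedom is the interaction of food with oxygen, so a gene whose hypoxia effect differs between foods counts as variable. Without limma's mean-variance trend only fpn-1.1 was called, at an adjusted p of 0.0341, with 0.0525 for smf-3, 0.0566 for ftn-1 and 0.0778 for ftn-2. With a pseudocount of 5 RPKM limma lost ftn-1 (adjusted p = 0.0990) and smf-3 (adjusted p = 0.0613), and with no filter on low genes it lost ftn-2 (adjusted p = 0.0641). The shares of all genes called under those settings are not given here.

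**Figure D3:**
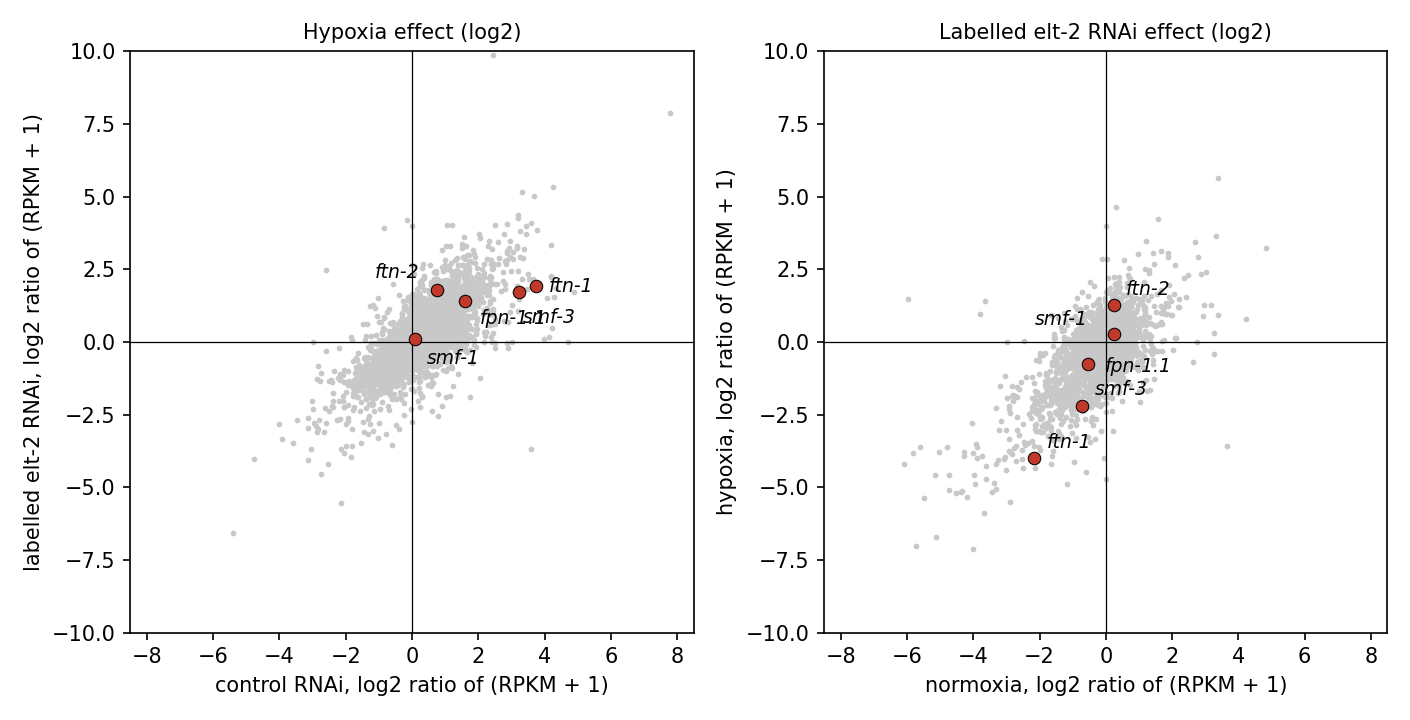
Log2 ratios of all 10655 compared genes (grey points) with the 5 compared iron genes in red: on the left the hypoxia effect with vector (x) and labelled elt-2 RNAi (y), on the right the RNAi effect in normoxia (x) and hypoxia (y). ftn-1 (3.75 and 1.92) and smf-3 (3.23 and 1.74) lie far to the right on the left panel, and on the right panel ftn-1 lies far below 0 on both axes while ftn-2 lies above 0.

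Between foods, the library labelled elt-2 RNAi was at least 2-fold lower for ftn-1 alone of the 5 compared genes in normoxia, against 3.66% of all compared genes, and at least 2-fold higher for none, against 1.23%. Under the mean limit, fpn-1.2 had a log2 ratio of -1.92 in normoxia and -0.27 in hypoxia, and smf-2 had 0.12 and -0.12. With a pseudocount of 0.1 RPKM 2 of 5 were at least 2-fold lower in normoxia, against 5.35%. In hypoxia the library labelled elt-2 RNAi was at least 2-fold lower for ftn-1 and smf-3, against 5.08% of all compared genes, and at least 2-fold higher for ftn-2, against 1.94%. limma's average RNAi effect was -3.08 ± 0.50 for ftn-1 (SE, 4 libraries; adjusted p = 0.136), -0.64 ± 0.11 for fpn-1.1 (adjusted p = 0.144), -1.45 ± 0.42 for smf-3 (adjusted p = 0.273), 0.75 ± 0.28 for ftn-2 (adjusted p = 0.316) and 0.27 ± 0.12 for smf-1 (adjusted p = 0.357). limma called none of the 5, against 1.11% of all compared genes called in either direction. The authors' test called 0 of the 7 between foods at either oxygen level, against 0.531% of tested loci in normoxia and 0.921% in hypoxia. That test was not run on smf-2 at either oxygen level, nor on fpn-1.2 in hypoxia. With a pseudocount of 0.1 RPKM limma's average for ftn-1 was -4.43, with an adjusted p of 0.0207.

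The hypoxia effect differed by at least 2-fold between the foods for 3 of the 5 genes, with no test of that difference. Under the mean limit, the hypoxia effect of fpn-1.2 differed by 1.64 (log2), while smf-2 was at -0.24. fpn-1.2 was at only 0.107 and 0.169 RPKM with labelled elt-2 RNAi in normoxia and hypoxia. The difference of hypoxia effects, labelled elt-2 RNAi minus control RNAi, was 1.03 (log2) for ftn-2 and -1.49 for smf-3, where 1.99% of compared genes were at least 2-fold above 0 and 3.15% at least 2-fold below. For smf-1 and fpn-1.1 it was 0.04 and -0.20. For ftn-1 it was -1.83 with a pseudocount of 1 RPKM, 0.19 with one of 0.1 RPKM and 1.40 with none, so its sign depends on how the normoxia value of 0.0692 RPKM is handled. As differences of levels the 2 foods were far apart, since ftn-1 went from 3.80 to 63.7 RPKM with vector and from 0.0692 to 3.06 RPKM with labelled elt-2 RNAi. With a pseudocount of 1 RPKM none of the 5 differed by 4-fold, against 0.244% of compared genes above and 0.497% below, whereas with one of 5 RPKM ftn-1 did, at -2.297. With a pseudocount of 1 RPKM none was 4-fold higher in hypoxia with labelled elt-2 RNAi, against 1.81%, whereas with one of 0.1 RPKM ftn-1 was at 4.22 (log2) and smf-3 at 2.55 in that comparison.

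**Figure D4:**
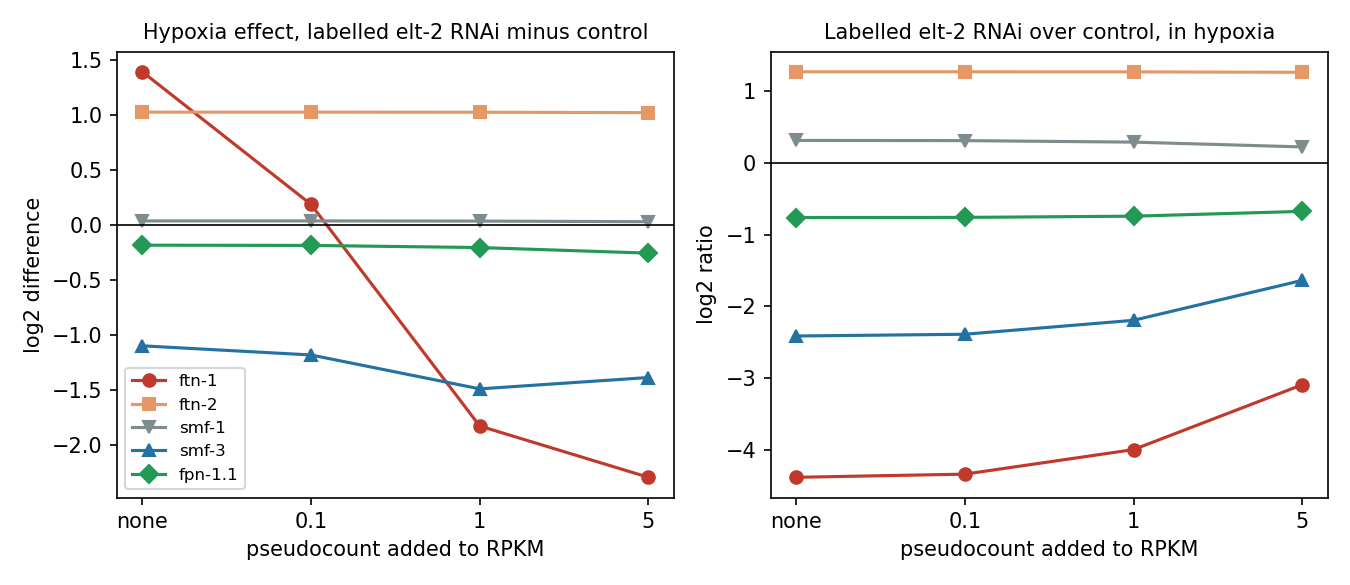
Log2 difference of hypoxia effects (left) and the labelled elt-2 RNAi to control log2 ratio in hypoxia (right) for the 5 compared genes, against the pseudocount added to RPKM. On the left the ftn-1 line crosses 0, from 1.40 with none to -1.83 with 1 RPKM, while the ftn-2 and smf-3 lines stay on their sides, and on the right no line crosses 0.

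Genes with profiles nearest to each iron gene were looked up among 8003 genes whose mean reached 5 RPKM, by Euclidean distance between log2(RPKM + 1) profiles centred over the 4 libraries. Nearest to ftn-1 were cyp-32B1 at a distance of 0.80, Y40B10A.6 (now comt-4) at 0.98 and clec-47 at 1.06. cyp-32B1, a cytochrome P450 gene, was at 2.01, 54.6, 0.121 and 4.44 RPKM in the order control normoxia, control hypoxia, labelled elt-2 RNAi normoxia and hypoxia. Nearest to smf-3 were F58A6.1 (0.21), his-12 (0.48) and F10D2.8 (0.50), F58A6.1 being at 3.22, 38.1, 2.03 and 7.44 RPKM. his-12 is 1 of several near-identical histone genes, so its counts are uncertain. Nearest to ftn-2 were itx-1 (0.09), skr-3 (0.16) and ZK1037.6 (0.18), and itx-1, a neurexin-like gene, was at 4.72, 8.99, 5.70 and 23.8 RPKM. Nearest to fpn-1.1 were F32B5.1 (0.11), W10C8.5 (0.11) and the glucuronosyltransferase gene ugt-47 (0.17). For smf-1 the nearest were B0001.3 (0.01), gei-17 (0.02) and M18.8 (now dhhc-6, 0.03). Over 4 libraries many genes lie close, and the distances are a description.

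Markers of the intestine, the tissue in which ftn-1 and smf-3 are known to act, were also higher in hypoxia, limma calling 6 of 10 as higher, against 17.2% of all compared genes, and 0 as lower. Their summed level was 381 RPKM with vector in normoxia, 682 with vector in hypoxia, 306 with labelled elt-2 RNAi in normoxia and 969 with it in hypoxia, over 12 markers, none at 0. Of 10 compared intestine markers, 4 were at least 2-fold higher in hypoxia with vector, against 9.48% of all compared genes, and 5 with labelled elt-2 RNAi, against 9.87%, with medians of 0.86 and 1.06 (log2). The markers did not share one order of libraries. The intermediate filament gene ifb-2 was at 26.6, 101, 29.2 and 231 RPKM in the order of libraries just given, the order of ftn-2. The esterase gene ges-1, at 18.3, 21.8, 6.65 and 12.1 RPKM, and the intermediate filament gene ifd-1, at 1.87, 3.92, 0.141 and 0.504 RPKM, had the order of ftn-1. Between foods the median of these markers was -0.10 in normoxia and 0.35 in hypoxia. In hypoxia 7 of the 10 markers had a ratio above 0 between foods, up to 1.40, while ifd-1 (-1.71), ges-1 (-0.80) and elt-7 (-0.30) were below 0, the side on which ftn-1, smf-3 and fpn-1.1 lay. The part of tissue make-up in the hypoxia ratios was not tested. elt-7 is in this list and among the iron regulators. Germline and oocyte markers, of which limma called 8 of 8 as lower, against 15.7% of all compared genes, had medians of -0.69 and -0.51 for hypoxia. Body wall muscle markers, of which limma called 6 of 7 as higher, had medians of 0.94 and 0.84. Epidermis markers had medians of 0.47 and 0.38, limma calling 2 of 5 as higher and 0 as lower. Neuron markers had medians of 0.06 and 0.20, limma calling 2 of 8 as higher and 1 as lower. With vector the ratios ran from -0.73 to 1.78 for epidermis markers and from -0.80 to 1.16 for neuron markers.

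Genes known to regulate iron handling had median log2 hypoxia ratios of 0.33 with vector and 0.22 with labelled elt-2 RNAi. The list held hif-1, its negative regulators egl-9, vhl-1 and rhy-1, the iron regulatory protein homologue aco-1, the nuclear receptor nhr-14, the GATA factors elt-2 and elt-7, and daf-16. limma's average hypoxia effect rose for elt-7 by 1.21 ± 0.17 (SE, 4 libraries; adjusted p = 0.0251), for elt-2 by 1.09 ± 0.23 (adjusted p = 0.0423) and for aco-1 by 0.46 ± 0.08 (adjusted p = 0.0316), and for rhy-1 it fell, at -1.02 ± 0.15 (adjusted p = 0.0261). The other 5 of 9 were not called, and 32.9% of all compared genes were called in either direction. The elt-2 average includes the libraries fed elt-2 double-stranded RNA, and the part of that food in its values was not tested. With vector alone the log2 hypoxia ratio of elt-2 was 1.48. The authors' deposited tables called elt-2 in no comparison. hif-1, which encodes the oxygen-regulated factor itself, was at 39.3, 43.3, 37.6 and 44.0 RPKM in the order control normoxia, control hypoxia, labelled elt-2 RNAi normoxia and hypoxia, a narrow range. nhr-14, a receptor known to affect smf-3, was at 5.66, 8.13, 3.79 and 8.98 RPKM in that order. Between foods no regulator was called by limma, against 1.11% of all compared genes called in either direction. Only elt-2, the RNAi target itself, was past 2-fold, upwards in normoxia at 1.40, where 1.23% of compared genes were at least 2-fold higher.

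None of the 9 mitochondrial iron and iron-sulfur cluster genes was past 2-fold in the 4 pairwise comparisons. Most compared genes were not either, since between 1.23% and 9.87% of them were past 2-fold in a given direction. Their ratios ran from -0.27 to 0.52 for hypoxia with vector and from -0.33 to 0.64 with labelled elt-2 RNAi, and from -0.21 to 0.31 for labelled elt-2 RNAi in hypoxia. limma called mfn-1 (W02B12.9, a mitoferrin homologue), up by 0.58 ± 0.08 (SE, 4 libraries; adjusted p = 0.0237), and isp-1, the Rieske iron-sulfur protein, up by 0.41 ± 0.06 (adjusted p = 0.0276), as higher in hypoxia, 2 of 9 against 17.2% of all compared genes. The frataxin gene frh-1 was at 34.1, 38.1, 35.7 and 38.4 RPKM in the same order of libraries.

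Of the genes for zinc, copper and other metals, 13 of 15 listed were matched and compared. limma called zipt-2.1, cuc-1 and mtl-1 as higher and zipt-11 as lower in hypoxia, 4 of 13 where 32.9% of all compared genes were called in either direction. It called mtl-1 and mtl-2 as lower with labelled elt-2 RNAi, 2 of 13 against 0.976% of compared genes called lower between foods. The copper chaperone gene cuc-1 was at 175 and 348 RPKM with vector in normoxia and hypoxia, and at 149 and 297 with labelled elt-2 RNAi. The zinc transporter gene zipt-2.3 (Y54G9A.4) was at 3.12, 5.59, 1.17 and 0.973 RPKM in the order of the libraries above, with an RNAi ratio of -1.74 in hypoxia, and was not called (limma adjusted p = 0.186). The metallothionein gene mtl-1, which binds metals in the intestine, was at 188 and 434 RPKM with vector and 39.8 and 113 with labelled elt-2 RNAi. Both labelled elt-2 RNAi libraries were below both vector libraries for mtl-1.

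**Figure D5:**
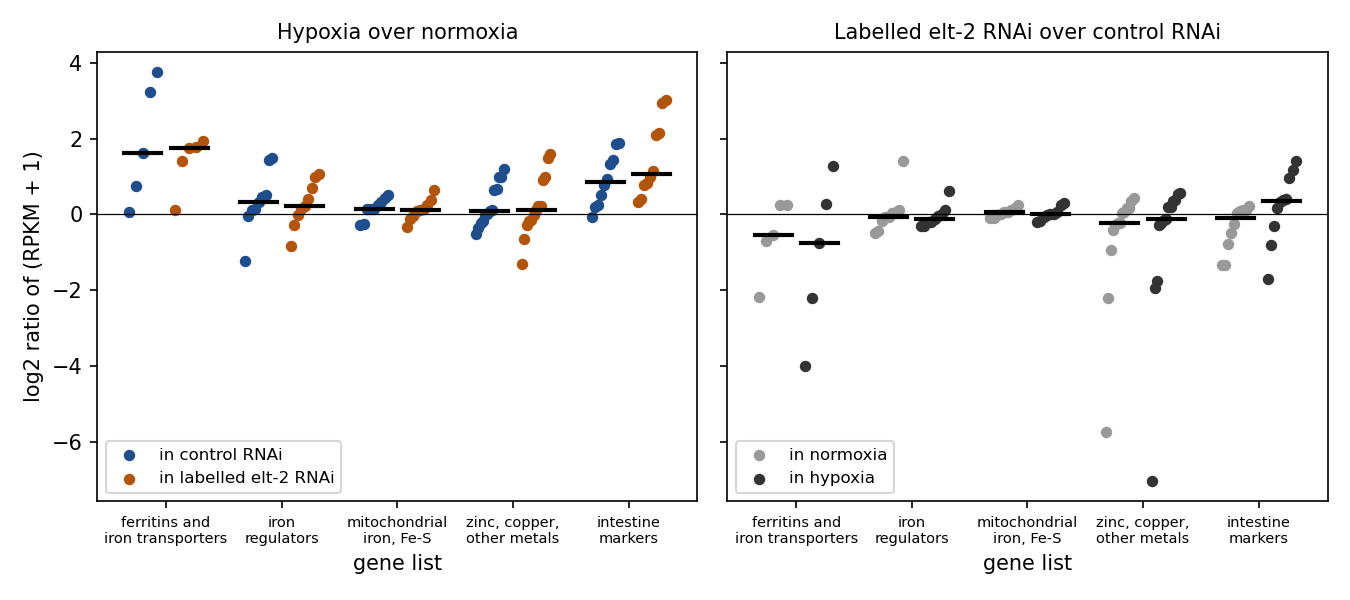
Log2 ratios of (RPKM + 1) of the compared genes of 5 lists, 1 point per gene with the median as a black line: hypoxia over normoxia on the left, with vector (blue) and labelled elt-2 RNAi (orange), and labelled elt-2 RNAi over control on the right, in normoxia (grey) and hypoxia (black). The medians of the ferritins and iron transporters (1.61 and 1.74) lie above those of the other lists plotted on the left, where the intestine markers are at 0.86 and 1.06.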

How the data were processed

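RNA of whole adults was measured in 4 libraries of 1 group each, and the authors deposited them per gene in RPKM, in 6 tables of 1 library pair each, per the file headers. A library's values were the same in every table that held it (0 differing values). TopHat2 2.0.8b, Cufflinks 2.1.1 and build ce10 appear, without their roles, in the submitters' processing notes. Annotation, filters and strand handling were not given in the sources used here. The deposited log2 fold change, test score, p-value and adjusted p are the authors' own comparison of 1 library with 1 library, per the file headers, and are credited where printed.

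Genes were compared where the mean reached 1 RPKM, the locus held a single gene name (334 loci name several) and no table gave the status FAIL, HIDATA or LOWDATA (8 loci), which left 10655 of 19852. Ratios were log2 of (RPKM + 1) over (RPKM + 1), and at least 2-fold was counted. limma 3.58.1 in R 4.3.3 fitted additive terms for oxygen and food to log2(RPKM + 1) with its mean-variance trend, calling at a Benjamini-Hochberg adjusted p of 0.05, and was tested on simulated data. Nothing in the labels says that libraries came from separate cultures, and no group has a replicate. The error in limma's fit is the interaction of food with oxygen, pooled in part over all genes. Its p-values therefore cannot separate variation between cultures, technical variation and a true interaction. Absolute depth is unknown, and no interval for counting error is given.

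The genes and lists were chosen with earlier results of these data known. All 7 genes are named, with elt-2, the called or largest members of each list and the 3 nearest profiles of each compared gene. Marker and regulator lists were matched by name or RefSeq accession through name tables, and exon and codon numbers came from the WBcel235 annotation. Coordinates are those of the files on ce10. Other settings tried were a pseudocount of 0.1 or 5 RPKM, no filter, a minimum mean of 5 RPKM, median centring, 4-fold, loci naming several genes, limma without the trend and, chosen after seeing the data, no pseudocount.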

Additional observations from a re-analysis of the deposited data

Results flagged for a closer look

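The hypoxia ratio of fpn-1.2 had opposite signs on the 2 foods, at -1.56 (log2 of RPKM + 1) with vector and 0.078 with labelled elt-2 RNAi. The difference was not tested, and with labelled elt-2 RNAi both values were under 0.2 RPKM. The hypoxia ratio of smf-2 also had opposite signs, at 0.20 with vector and -0.040 with labelled elt-2 RNAi, with every value at or under 0.197 RPKM and the difference not tested.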

How the results depend on the processing

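No paired analysis was possible because each group has 1 library and the labels give no shared replicate numbers, and for the same reason no library could be left out of the fit. Counts are of the 5 compared members, or of all 7 with no filter. Members at least 2-fold lower in labelled elt-2 RNAi in normoxia numbered 1, ftn-1, and 0 with a pseudocount of 5. They numbered 2 with a pseudocount of 0.1 or with none, smf-3 being added. With no filter they also numbered 2, the added gene being fpn-1.2. Members at least 2-fold higher in hypoxia in labelled elt-2 RNAi numbered 4, and 2 with a pseudocount of 5. At a threshold of 4-fold with a pseudocount of 1 that count was 0, as was the count of members whose hypoxia effect differed between foods, 3 at 2-fold. At 2-fold the latter count was 2 with a pseudocount of 0.1 and 4 with no filter. limma's average hypoxia effect called 4 members, 3 with no filter, 2 with a pseudocount of 5 and 1 without the trend. Its average RNAi effect called 0, and 1 with a pseudocount of 0.1. Apart from those printed above, shares of all genes past the fold or called under the other settings are not given. A change in these counts can therefore not be set against that of all genes. The difference of hypoxia effects of ftn-1 changed sign, to 0.19 with a pseudocount of 0.1 and 1.40 with none. Of the other single-gene values, 237 kept their direction and side of the threshold. A further 14 crossed the fold threshold, 6 lost a limma call and 1 gained a call. Apart from the changes that follow from a higher threshold or from the weight a pseudocount gives to low values, the cause was not tested. Depth is unknown, so the counting error of the low values of smf-2, fpn-1.2 and ftn-1 could not be given.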

Other observations

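The loci next to smf-3 had other orders of libraries. ngn-1, 693 bp away on the other strand, was at 15.97 RPKM with vector in normoxia, 2.99 with vector in hypoxia, 9.44 with labelled elt-2 RNAi in normoxia and 3.73 with it in hypoxia. Y69A2AR.5, 1798 bp away on the same strand, was at 2.003, 7.03, 0.638 and 0.702 RPKM in that order, with log2 hypoxia ratios of 1.42 and 0.06 against 3.23 and 1.74 for smf-3. The nearest locus to ftn-1, nhx-3, 1647 bp away on the same strand, was at 4.33, 7.81, 3.87 and 7.09 RPKM. K11G12.5, 433 bp from smf-1, was at 31.1, 38.1, 29.9 and 28.7 RPKM.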
